A study of Mus musculus with 4 samples.

Results

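Isg15, Ifit1, Ifit3, Rsad2, Irf7, Gbp2, Bst2 and Ifitm3 are 8 interferon-stimulated genes among the 20672 mouse genes of the deposited tables, and they are described here by endothelial subtype in the developing kidney. They were chosen by symbol, on UMI counts in these same libraries, with it already known that genes of this kind were higher at P0 than at E15.5. That contrast is therefore given as a description of their values. A UMI count is the number of distinct captured RNA molecules, and a level below is the UMIs of a gene summed over the cells of a class and library divided by all UMIs of those cells, in CPM.

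Single-cell RNA was measured with droplet 3′ chemistry in 4 libraries, and each group is 1 library. The transplant group was C57BL/6N E12.5 kidney rudiments kept for 12 days in the epididymal fat of a host. Its host is labelled C57BL/6N, but the series' design text names NOD immunodeficient mice, and the conflict was not resolved; host vessels and blood cells may be among its cells and were not separated. The other groups were kidneys taken directly from E15.5 mice of strain ICR, E17.5 mice of strain C57BL/6 and P0 mice of strain ICR. All 4 are labelled wild type, and how many animals were pooled is not given. The P0 library nevertheless held tdTomato UMIs, a fluorescent reporter transcript that had 0 UMIs in the used cells of the other 3 libraries. After filtering, 6268 transplant, 3463 E15.5, 4396 E17.5 and 7568 P0 cells were used, with median UMIs per cell of 6276.5, 22585, 7197.5 and 9885.5 in that order, and any 2 libraries shared between 27 and 108 barcodes.

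Interferons are secreted proteins that cells release on sensing foreign nucleic acid. Type I interferons bind the Ifnar1 and Ifnar2 receptor and act through the kinases Jak1 and Tyk2 and a factor that holds Stat2 and Irf9 on a DNA element called the interferon-stimulated response element, while interferon-gamma has a receptor of its own and acts mainly on a different element called the gamma-activated site. Endothelial cells line all blood vessels and carry both receptors. In the kidney, glomerular capillaries, arteries and the capillaries and veins around the tubules have different endothelial programmes.

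The promoter sequences themselves were not used in the choice. The genes were chosen as interferon-stimulated, however, so an interferon-stimulated response element near their starts is not a property independent of the choice. The motif GAAANNGAAA, or TTTCNNTTTC on the other strand, is the core of the response element, and N stands for any base. It was searched on both strands of the RefSeq window around each gene's start on GRCm38.p6, from 250 bases before the start to 50 bases from it. It was present in 7 of the 8 windows, against 3.99% of all 27025 genes with a window. The match is in capitals and overlapping matches are merged. Each line is read 5′ to 3′ on the gene's own strand.
Isg15, chr4:156200871-156200900, minus strand: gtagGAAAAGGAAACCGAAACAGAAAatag
Ifit1, chr19:34640775-34640804, plus strand: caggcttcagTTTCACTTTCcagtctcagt
Ifit1, chr19:34640794-34640823, plus strand: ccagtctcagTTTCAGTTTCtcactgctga
Ifit3, chr19:34583363-34583392, plus strand: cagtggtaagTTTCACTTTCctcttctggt
Ifit3, chr19:34583397-34583426, plus strand: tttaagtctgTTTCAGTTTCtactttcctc
Rsad2, chr12:26456553-26456582, minus strand: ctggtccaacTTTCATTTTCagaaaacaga
Gbp2, chr3:142620594-142620623, plus strand: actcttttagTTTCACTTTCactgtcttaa
Bst2, chr8:71537580-71537609, minus strand: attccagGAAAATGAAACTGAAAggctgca
Ifitm3, chr7:141010723-141010752, minus strand: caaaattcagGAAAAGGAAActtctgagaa

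Isg15 held 3 overlapping matches, from 78 to 57 bases before the start. Ifit1 and Ifit3 held 2 separate matches each, between 104 and 76 bases and between 156 and 113 bases before their starts. In Ifitm3 the matches lay after the start, the first from base 3 to base 12 of the transcript and another from base 20 to base 29. Irf7 had no match, which says only that these letters are not in its window. The gamma-activated site motif TTCNNNGAA, which reads the same on both strands, was present in 2 of the 8 windows, those of Bst2 and Ifitm3, and in 9.55% of all genes. A match is a string of letters and not a measured binding site.

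Cells were assigned to classes by listed marker genes. There were 713 transplant, 227 E15.5, 467 E17.5 and 911 P0 endothelial cells. Within them, the arterial gate took cells with a UMI of both Gja5 and Sox17, the Ehd3 gate took other cells with at least 2 UMIs of Ehd3, a gene of glomerular endothelium, and the Plvap gate took cells with at least 2 UMIs of Plvap, a protein of fenestral diaphragms, and none of Ehd3; the remaining cells are called other endothelium. The arterial gate held 99 transplant, 39 E15.5, 46 E17.5 and 86 P0 cells, the Ehd3 gate 237, 52, 97 and 260, and the Plvap gate 221, 83, 195 and 310, in the same order of libraries.

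The arterial gate was checked with a marker it did not use. Bmx, a kinase gene of arterial endothelium, was at 32.7 CPM in the transplant, 64.1 CPM at E15.5, 32.8 CPM at E17.5 and 51.7 CPM at P0, against at most 1.75 CPM in the Plvap gate of any library. It also took in 43 transplant, 6 E15.5, 17 E17.5 and 28 P0 cells that had at least 2 Ehd3 UMIs. Of the 6 genes listed for the Ehd3 class, Ehd3 itself included, the Ehd3 gate held UMIs of 5 in the transplant, 4 at E15.5 and 6 in each of the other two libraries. Their summed level did not set the Ehd3 gate apart from the arterial gate in most libraries. It was 174 CPM in the arterial and 110 CPM in the Ehd3 gate at E15.5, 1172 and 622 CPM at E17.5, and 861 and 758 CPM at P0. Only in the transplant was the Ehd3 gate higher, at 2264 CPM against 1332 CPM in the arterial gate. In the transplant Gata5 was at 56.0 CPM in the Ehd3 gate and 2.92 CPM in the Plvap gate, and Sost was at 0 UMIs in the Ehd3 gate. At E15.5 the markers other than Ehd3 were near 0: Gata5 had 6 UMIs, Pi16 3, Mapt 1, and Sost and Kcnj5 0. The Ehd3 gate was not free of Plvap, which was at 796 CPM in it at P0, against 1055 CPM in the Plvap gate. In the transplant the 4 genes listed for the Plvap class, Plvap itself included, summed to 1878 CPM in the Plvap gate. Their sum was higher in the Ehd3 gate, at 2364 CPM, and in the arterial gate, at 2936 CPM. At E17.5 the Ehd3 gate had the highest sum, and at E15.5 and P0 the Plvap gate did. The 5 arterial genes include Gja5 and Sox17, which set the arterial gate, so part of their sum there follows from the gate. This sum was highest in the arterial gate of every library. In the transplant it was 1045 CPM in the Plvap gate, against 2068 CPM in the arterial gate. At E15.5 the Ehd3 gate had a median of 40608.5 UMIs per cell and the Plvap gate 20160, so depth moves with that gate. One UMI fewer would have added or removed cells: 32 E15.5 and 125 P0 endothelial cells had exactly 1 Ehd3 UMI, and 10 and 75 had exactly 2.

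**Figure D1:**
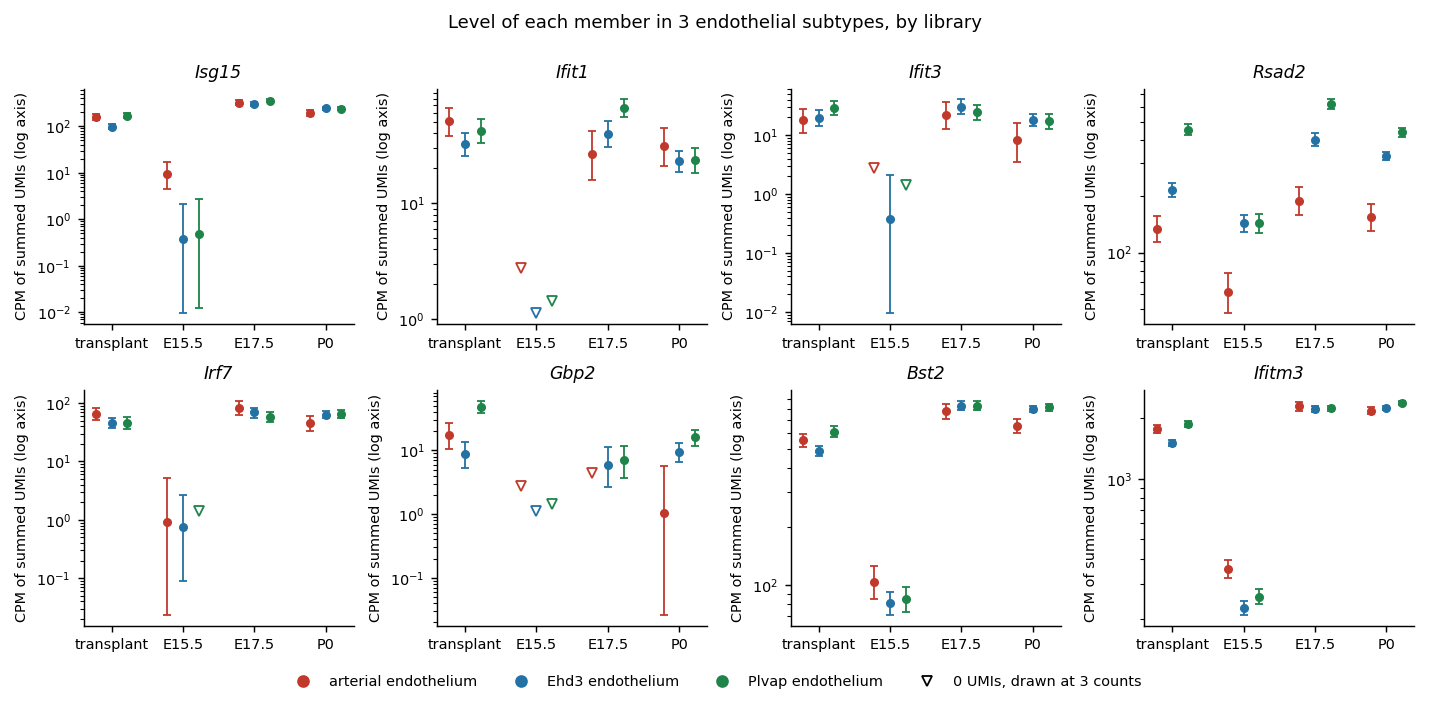
Level of each of the 8 genes in the arterial, Ehd3 and Plvap gates of each library, in CPM of summed UMIs on a log axis, with exact Poisson 95% intervals (counting error only). Open triangles are 0 UMIs drawn at the level of 3 counts; Rsad2 is lowest in the arterial gate of every library, and all 8 genes are lowest at E15.5 in every gate, except that Gbp2 in the arterial gate had 0 UMIs at both E15.5 and E17.5.

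In whole endothelium all 8 genes were at least 2-fold higher at P0 than at E15.5, where 14.4% of the 12956 genes with a ratio were. Of the 8, Rsad2, Bst2 and Ifitm3 had more than 12 UMIs in E15.5 endothelium, and the other five had 12 or fewer. All intervals below are 95% intervals of counting error alone: with 1 library per group, variation between animals and dissociations is not measured and no test was possible.

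Isg15, a ubiquitin-like protein that is attached to other proteins, had 144 CPM in transplant, 1.69 CPM in E15.5, 326 CPM in E17.5 and 240 CPM in P0 endothelium. The E15.5 value is 12 UMIs in 7 of 227 cells, and the ratio of P0 to E15.5 was 142 (interval 81.1 to 275). Ifit1, which binds foreign RNA ends, had 42.3 CPM in the transplant, 49.1 CPM at E17.5 and 23.9 CPM at P0. At E15.5 Ifit1 had 0 UMIs, which allows a level of up to 0.423 CPM, so it was at least 56.5-fold higher at P0. E15.5 is the low library for both genes, although its endothelial cells were the most deeply sequenced.

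Ifit3, a partner of Ifit1, had 27.9 CPM in the transplant, 0.141 CPM (1 UMI) at E15.5, 23.3 CPM at E17.5 and 14.9 CPM at P0. Its P0 to E15.5 ratio of 105 rests on that 1 UMI (interval 18.6 to 4186). Ifit3 has a near-identical neighbour, Ifit3b, and how reads shared by the copies were split is not given in the sources used here. Irf7, the transcription factor that switches on interferon-alpha genes, had 51.1 CPM in the transplant, 0.423 CPM (3 UMIs) at E15.5, 62.2 CPM at E17.5 and 61.2 CPM at P0, which gives a P0 to E15.5 ratio of 145 (49.3 to 703). Gbp2, a GTPase that acts on the compartments of intracellular pathogens, was the scarcest, with 25.9 CPM in the transplant, 0 UMIs at E15.5, 4.86 CPM at E17.5 and 10.2 CPM in P0 endothelium. Against E15.5 taken as 3 counts, P0 was at least 24.0-fold higher.

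The remaining members were already present at E15.5. Rsad2, which encodes viperin, an enzyme that makes a chain-terminating nucleotide, had 312 CPM in the transplant, 135 CPM at E15.5, 465 CPM at E17.5 and 364 CPM at P0, and its P0 to E15.5 ratio of 2.70 (2.51 to 2.90) was the smallest of the 8. Bst2, or tetherin, holds budding virus at the cell surface; it had 561 CPM in the transplant, 85.4 CPM at E15.5, 802 CPM at E17.5 and 778 CPM at P0, a P0 to E15.5 ratio of 9.12 (8.39 to 9.92). Ifitm3, a membrane protein that blocks virus entry, was the most abundant, with 1711 CPM in the transplant, 262 CPM at E15.5, 2215 CPM at E17.5 and 2271 CPM at P0, a P0 to E15.5 ratio of 8.65 (8.25 to 9.08). Each molecule is read once at its 3′ end, so CPM here carries no length term, and an order of levels between genes is one of captured molecules. E17.5 was close to P0 for Irf7, Bst2 and Ifitm3. It was above P0 for Isg15, Ifit1, Ifit3 and Rsad2 and below P0 for Gbp2. No ratio was computed for this pair, and E17.5 differs from the ICR libraries in strain as well as age.

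The difference was present in each subtype. At least 2-fold higher at P0 than at E15.5 were 7 genes in the arterial gate, 8 in the Ehd3 gate and 8 in the Plvap gate, against 12.6%, 15.7% and 14.5% of all genes with a ratio in those gates. The missing gene was Gbp2, with 1 UMI in P0 and 0 in E15.5 arterial cells. Outside the endothelium, 7 of 8 were at least 2-fold higher at P0 in mural cells (background 12.1%), all but Rsad2, and 8 of 8 in stroma (background 9.92%), where the median gene had a log2 ratio of -0.11. Isg15 had 68.5 CPM in P0 mural cells against 0 UMIs in E15.5 mural cells, and 30.6 CPM in P0 stroma against 0.664 CPM in E15.5 stroma.

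Genes of the dissociation stress response moved with this contrast. All 20 genes of that list, led by the heat shock genes Hspa1a and Hspa1b and by the early response gene Atf3, were at least 2-fold higher in P0 than in E15.5 endothelium, and their summed level was 16465 CPM at P0 against 1999 CPM at E15.5. In the transplant it was 10340 CPM and at E17.5 8833 CPM. The part of the stress response in the interferon result was not tested, and neither was that of the tdTomato reporter in the P0 library. Markers of leukocytes did not move the same way throughout: the 7 macrophage genes summed to 4.19 CPM in P0 and 7.48 CPM in E15.5 endothelium, while the 4 granulocyte genes summed to 23.5 CPM in P0 and 5.64 CPM in E15.5 endothelium, and the 3 plasmacytoid dendritic genes were at 0 in the endothelium of all 4 libraries. The 6 erythroid genes summed to 23.3 CPM in P0 and 1784 CPM in E15.5 endothelium, and in the Plvap gate to 14.9 CPM at P0 and 4266 CPM at E15.5. Their part was not tested.

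Within each library the subtype difference that recurred was Rsad2. Arterial cells had 134 CPM of Rsad2 against 454 CPM in Plvap cells of the transplant, 61.3 against 144 CPM at E15.5, 189 against 623 CPM at E17.5 and 154 against 438 CPM at P0. The arterial to Plvap ratio was 0.296 (0.247 to 0.353) in the transplant and 0.427 (0.322 to 0.559) at E15.5. It was 0.304 (0.251 to 0.365) at E17.5, with a P0 value of 0.351 (0.295 to 0.417). The arterial level was thus the lower one in 4 of 4 libraries. Of the 66 Rsad2 UMIs in E15.5 arterial cells, 27 came from 1 cell. Without the arterial cells that had at least 2 Ehd3 UMIs the E15.5 ratio was 0.537, no longer 2-fold, and the transplant ratio was 0.169. With cells gated after thinning to 5000 UMIs the ratio was 0.249 at E15.5 and 0.163 at E17.5.

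The Ehd3 gate lay between them in 3 libraries. Ehd3 cells had 217 CPM of Rsad2 in the transplant, 400 CPM at E17.5 and 329 CPM at P0, each below the Plvap value of its library and above the arterial one with intervals that did not meet. At E15.5 the Ehd3 and Plvap levels were 143 and 144 CPM and did not differ beyond counting error, with a ratio of 0.999 (0.857 to 1.17).

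**Figure D2:**
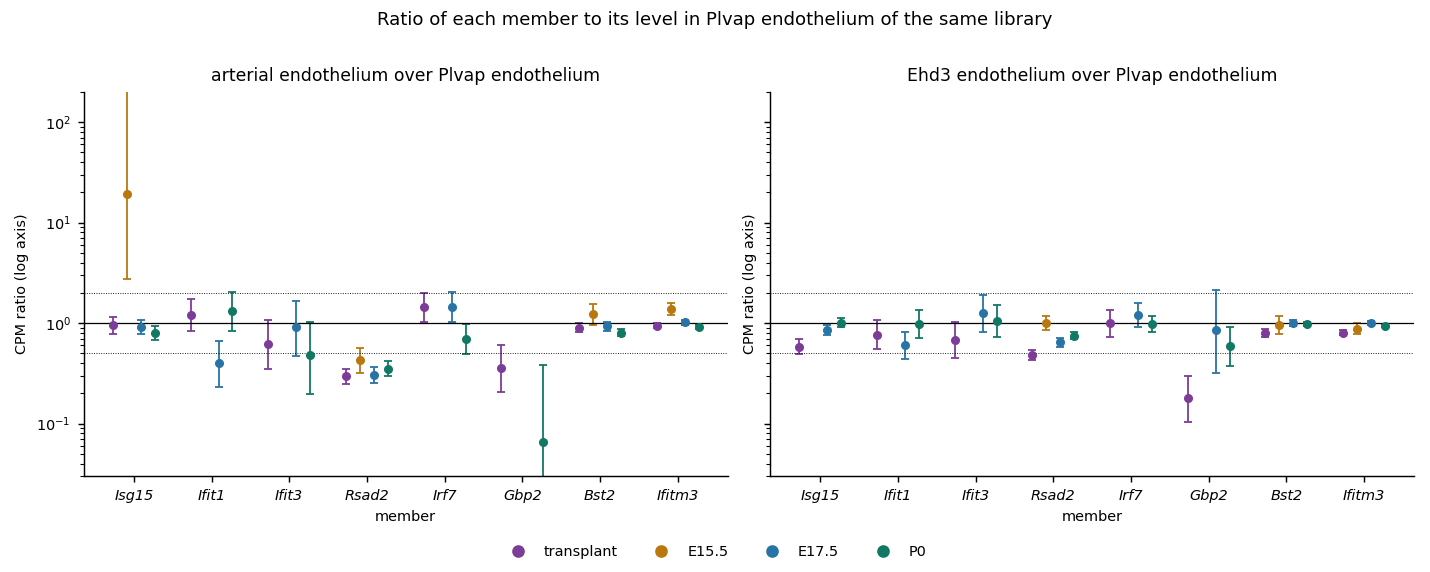
Ratio of each gene's CPM in the arterial gate (left) and the Ehd3 gate (right) to the Plvap gate of the same library, on a log axis, with exact 95% intervals of counting error; dotted lines are 2-fold, ratios with 0 UMIs on a side are left out, and the E15.5 interval of Isg15 runs past the axis. The arterial ratios of Rsad2 are all below 1, from 0.296 in the transplant to 0.427 at E15.5, while those of Bst2 run from 0.805 to 1.22 and those of Ifitm3 from 0.917 to 1.38.

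Beyond Rsad2 few genes passed 2-fold between the arterial and Plvap gates. In the transplant 2 genes were lower and none higher, at E15.5 1 was lower and 1 higher of 4 with a ratio, at E17.5 2 were lower, and the P0 cells had 3 lower, against a background, either way, of 14.2%, 18.9%, 19% and 16.8% in that order of libraries. Gbp2 was the second lower gene in the transplant, with 17.3 CPM in arterial and 47.9 CPM in Plvap cells, a ratio of 0.360 (0.206 to 0.599). At P0 Gbp2 had 1 UMI in arterial cells and 15.9 CPM in Plvap cells, a ratio of 0.0650 (0.00161 to 0.380). Ifit3 was the third lower gene at P0, with 8 UMIs in arterial cells and a ratio of 0.480 whose interval reached 1.02. The E17.5 pair was completed by Ifit1, at 26.8 CPM in arterial and 66.2 CPM in Plvap cells, a ratio of 0.405 (0.233 to 0.668), but at P0 and in the transplant the Ifit1 ratios of 1.32 and 1.21 had intervals that held 1. Without the arterial cells that had at least 2 Ehd3 UMIs these Ifit1 ratios were 0.217 at E17.5 and 0.703 at P0.

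The only gene past 2-fold upward was Isg15 at E15.5, with 10 UMIs in 5 arterial cells (9.29 CPM) against 1 UMI in Plvap cells, a ratio of 19.4 with an interval from 2.76 to 842, and 54.6 by the mean over cells. In the other libraries Isg15 was close between these gates: 161 CPM in arterial and 168 CPM in Plvap cells of the transplant, 325 and 354 CPM at E17.5, and 193 and 240 CPM at P0. The stress list also differed between these gates. In the arterial cells 12 of its 20 genes were at least 2-fold higher than in Plvap cells at E17.5, 11 of 20 at P0, 6 of 19 at E15.5 and 0 of 20 in the transplant. Of all genes with a ratio, 19%, 16.8%, 18.9% and 14.2% passed 2-fold either way in that order. The part of the stress list in the subtype ratios was not tested.

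No gene passed 2-fold between the Ehd3 and Plvap gates at E15.5, where 3 of the 8 had a ratio, at E17.5 or at P0, while 7.8%, 8.24% and 8.35% of genes did either way. In the transplant 2 of 8 did, both lower in Ehd3 cells, against a background of 13.7%. These were Rsad2, at a ratio of 0.478 (0.427 to 0.536), and Gbp2, with 8.61 CPM in Ehd3 and 47.9 CPM in Plvap cells, a ratio of 0.180 (0.104 to 0.296). Isg15 was at 98.2 CPM in transplant Ehd3 cells and 168 CPM in transplant Plvap cells, a ratio of 0.584 (0.488 to 0.697). All 8 ratios were below 1 in the transplant, from 0.180 for Gbp2 to 0.993 for Irf7, and the intervals of Irf7, Ifit1 and Ifit3 held 1. When cells were gated after thinning to 5000 UMIs, 5 of the 8 were at least 2-fold lower in transplant Ehd3 cells.

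Endothelium was set against all other cells of its library, which asks where in the kidney the genes were read. Rsad2 stood out: 312 CPM in endothelium against 3.48 CPM in the other cells of the transplant, 135 against 1.75 CPM at E15.5, 465 against 2.67 CPM at E17.5 and 364 against 2.49 CPM at P0. Its ratios were 89.9 (76.6 to 106), 77.0 (64.4 to 92.6), 174 (141 to 218) and 146 (126 to 170) in that order. Even at E15.5, where most of the genes were near 0, 956 of the 1096 Rsad2 UMIs lay in endothelium. The median gene was itself lower in endothelium, with a log2 ratio between -0.26 and -0.19 over the 4 libraries. Mural cells, the contractile cells that wrap vessels, had 9.51 CPM of Rsad2 in the transplant, 1.66 CPM at E15.5 and 3.86 CPM at E17.5, and at P0 they held 8 UMIs of it. Higher values outside endothelium were those of the 29 E17.5 macrophages, at 116 CPM from 17 UMIs, and of the 57 E15.5 cells gated as erythroid, at 46.2 CPM.

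Of the 8 genes, 8 were past 2-fold in the transplant, 4 at E15.5, 8 at E17.5 and, for P0, 7, all of them higher in endothelium, against 42.6%, 33.6%, 37.9% and 40.3% of all genes either way in that order of libraries. At E15.5 these were Isg15, Rsad2, Bst2 and Ifitm3. At P0 the gene that did not pass was Ifit3, with 14.9 CPM in endothelium and 8.77 CPM in the other cells, a ratio of 1.69 (1.41 to 2.03). Isg15 by contrast had 240 CPM in P0 endothelium and 8.73 CPM in the other P0 cells, a ratio of 27.5.

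**Figure D3:**
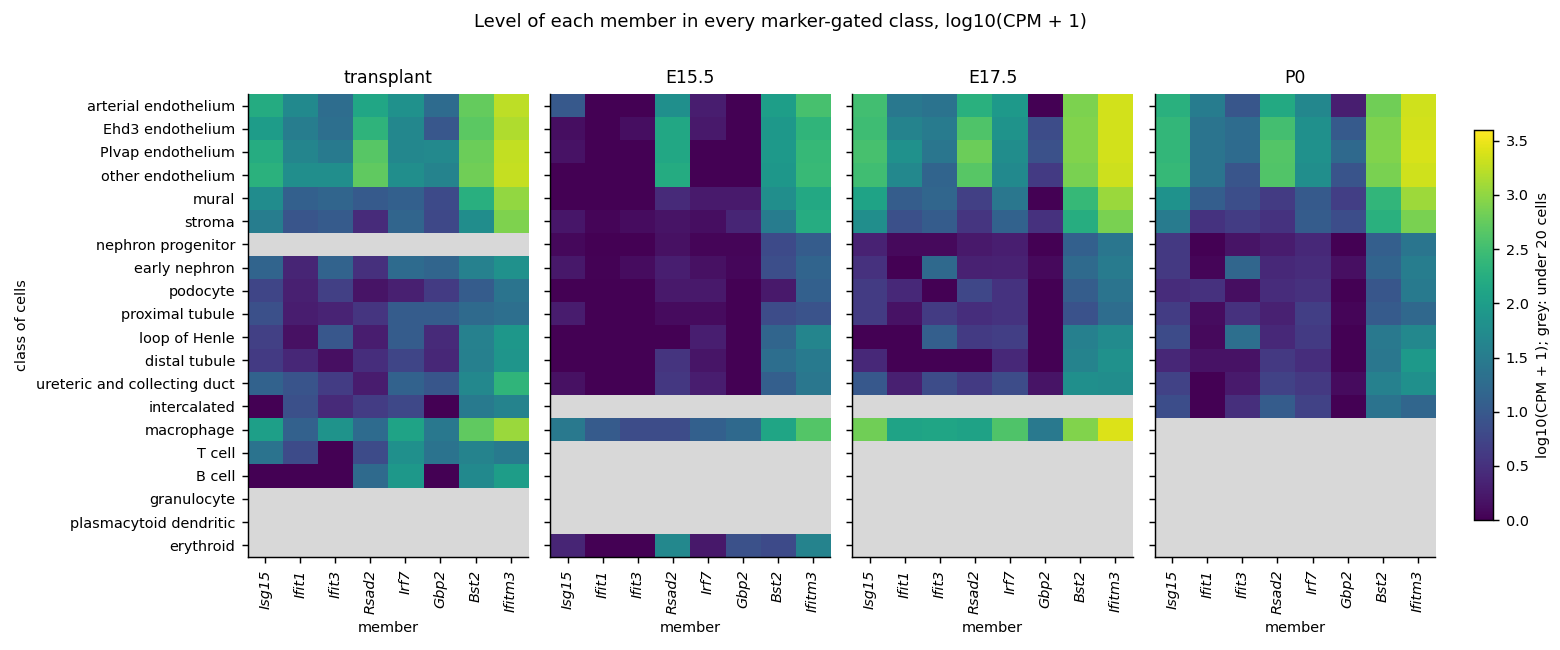
Level of each gene in every class of cells of each library, as log10(CPM + 1); rows are classes, columns are genes, and grey marks classes with fewer than 20 cells. The endothelial rows are among the brightest, but macrophages are above endothelium for Isg15, Irf7 and Ifit1 at E17.5 and for Isg15 at E15.5. Mural cells and stroma follow for Bst2 and Ifitm3. Ifit3 is raised in early nephron and loop of Henle cells without Ifit1, and at P0 loop of Henle cells are above whole endothelium for Ifit3.

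Ifit3 was the gene whose pattern left the endothelium. In early nephron cells Ifit3 had 13.0 CPM in the transplant, 0.325 CPM at E15.5, 16.2 CPM at E17.5 and 14.6 CPM at P0, so that early nephron and endothelium overlapped in their intervals at P0. Ifit1 in the same cells had 1.35 CPM in the transplant, 1 UMI at E15.5, 0 UMIs at E17.5 and 0.107 CPM at P0. The Ifit3 UMIs came from few cells: 145 UMIs from 29 of 826 E17.5 cells, and 409 from 94 of 1803 P0 cells, of which 1 held 31. In P0 loop of Henle cells Ifit3 had 19.8 CPM, while Isg15 had 5.57 CPM and Ifit1 had 1 UMI. Ifit1 and Isg15 thus were not high with Ifit3 in these epithelia, and a share of reads that belongs to Ifit3b, listed with 15 UMIs at E15.5 and 163 to 342 in the other libraries, cannot be told apart.

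Mural cells and stroma held intermediate levels of the membrane proteins. Ifitm3 had 1047 CPM in transplant, 147 CPM in E15.5, 1154 CPM in E17.5 and 1186 CPM in P0 mural cells, and 805, 169, 739 and 752 CPM in stroma of the same libraries. Bst2 had 188 CPM in transplant, 58.9 CPM in E15.5, 258 CPM in E17.5 and 236 CPM in P0 mural cells. In nephron progenitors and podocytes Ifitm3 was at most 28.8 CPM in any library. Bst2 in stroma was 57.6 CPM in the transplant against 173 CPM at E17.5 and 195 CPM at P0, so the transplant was the low one of these 3 libraries there.

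Macrophages, which are classical interferon responders, were few: 58 transplant, 31 E15.5 and 29 E17.5 cells, and 0 at P0. At E17.5 endothelium was below them for Isg15 (326 CPM in endothelium, 650 CPM in macrophages), Irf7 (62.2 CPM in endothelium, 404 CPM in macrophages) and Ifit1 (49.1 CPM in endothelium, 123 CPM in macrophages). In the transplant Isg15 was at 144 CPM in endothelium and 106 CPM in macrophages. At E15.5 Isg15 had 27.6 CPM in macrophages, from 14 UMIs, of which 10 came from 1 cell.

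In the transplant the genes also appeared in epithelium. Gbp2 had 10.1 CPM in transplant proximal tubule cells, against 0 UMIs at E17.5 and 1 UMI at P0. With E17.5 taken as 3 counts, the transplant was at least 20.1-fold above it. In early nephron cells Gbp2 had 52 UMIs in the transplant, against 2 at E17.5 and 11 at P0. Irf7 had 17.3 CPM in transplant early nephron cells, against 1.23 CPM at E17.5 and 1.89 CPM at P0, and Isg15 had 13.5 CPM, against 2.24 CPM at E17.5 and 3.00 CPM at P0. These levels are below those of transplant endothelium for each of the 3 genes. Isg15 was thus higher than at E17.5 in transplant early nephron cells and lower than at E17.5 in transplant endothelium. Macrophage markers moved with the early nephron values: the 7 genes summed to 31.6 CPM in transplant early nephron cells, against 5.37 CPM at E17.5 and 6.65 CPM at P0, and the stress list to 12653 CPM, against 7134 CPM at E17.5 and 9468 CPM at P0. Their part in these values was not tested. In proximal tubule cells the macrophage sum was 15.9 CPM in the transplant, against 19.7 CPM at E17.5 and 12.7 CPM at P0. A few cells carried much of the Gbp2: 1 transplant cell without a class had 47 Gbp2 UMIs and 1 proximal tubule cell had 32, out of 412 in all non-endothelial cells.

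The transplant was set against E17.5, the library nearest in strain, and against P0, to compare kidneys grown in fat with kidneys in place. The median gene with at least 50 UMIs was itself higher in the transplant, by 0.13 on the log2 scale against E17.5 and by 0.30 against P0 in whole endothelium, so the ratios below stand against that shift. These 2 comparisons share the transplant cells and are not independent.

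Against E17.5, 2 of 8 genes passed 2-fold in transplant endothelium, 1 higher and 1 lower, with a background of 21.6% either way. Isg15 was the lower one, with a ratio of 0.442 (0.407 to 0.480), and Gbp2 the higher, with a ratio of 5.33 (3.50 to 8.42). Isg15 was also lower in each gate, at 0.494 in arterial, 0.324 in Ehd3 and 0.475 in Plvap cells. By gate the counts were 2 in arterial, 1 in Ehd3 and 2 in Plvap cells, against backgrounds of 21.5%, 21.5% and 23.3%, and 2 of 8 or 1 of 8 is near those shares. Gbp2 was 6.90 times its E17.5 level in Plvap cells (3.82 to 13.5), and 1.47 times in Ehd3 cells with an interval that held 1. In arterial cells E17.5 had 0 UMIs, and with these taken as 3 counts Gbp2 was at least 3.86-fold higher. That bound was 2.48-fold without the arterial cells that held at least 2 Ehd3 UMIs. With cells gated after thinning to 5000 UMIs the value was 2.10.

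Ifit1 went in opposite directions between gates in this comparison: 50.8 CPM in transplant against 26.8 CPM in E17.5 arterial cells, a ratio of 1.89 (1.10 to 3.42), and 42.1 CPM in transplant against 66.2 CPM in E17.5 Plvap cells, a ratio of 0.635 (0.468 to 0.856). The E17.5 arterial value rests on 18 UMIs. Without the arterial cells that held at least 2 Ehd3 UMIs the arterial ratio was 4.31, past 2-fold. Bst2 and Ifitm3 were at 0.700 (0.669 to 0.732) and 0.773 (0.752 to 0.793) of their E17.5 endothelial levels.

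Against P0, Gbp2 was the gene past 2-fold in transplant endothelium, at 2.55 times (1.97 to 3.30), 1 of 8 with a background of 25.5%. In the gates the counts were 2 in arterial, 1 in Ehd3 and 1 in Plvap cells, against 25%, 25.2% and 27.4% of all genes. The single Ehd3 gene was Isg15, with 98.2 CPM in transplant and 243 CPM in P0 Ehd3 cells, a ratio of 0.404 (0.348 to 0.467). In Plvap cells Gbp2 was 3.01 times its P0 level (2.08 to 4.39), and Rsad2 was alike, with 454 CPM in the transplant and 438 CPM at P0, a ratio of 1.04 (0.946 to 1.13). The arterial pair was Gbp2, with 19 UMIs in the transplant and 1 at P0, and Ifit3. The Ifit3 ratio of 2.20 had an interval from 0.926 to 5.76. It was 4.64 without the arterial cells that had at least 2 Ehd3 UMIs.

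Single cells were compared after thinning each to 3000 UMIs, which left out 126 transplant, 9 E15.5, 65 E17.5 and 105 P0 endothelial cells with fewer. Isg15 then had a UMI in 25.04% of transplant, 0.459% of E15.5, 53.2% of E17.5 and 42.3% of P0 endothelial cells, and in 41.2%, 3.08%, 79.0% and 63.8% of the cells before thinning. In proximal tubule cells, a class with low Isg15 levels, the thinned share was at most 2.04% in any library. The median endothelial cell then held a UMI of 3 of the 8 genes in the transplant, of 1 at E15.5, and of 3 both at E17.5 and in the P0 library. At least 4 of the genes were read in 26.9% of transplant, 0% of E15.5, 46.3% of E17.5 and 34.5% of P0 endothelial cells, against 2.59% of transplant, 0% of E15.5, 3.82% of E17.5 and 2.16% of P0 mural cells. Among the gates the share was 16.9% in arterial, 35.4% in Ehd3 and 38.9% in Plvap cells at P0. In the transplant the share was 25.6% in arterial, 17.4% in Ehd3 and 34.4% in Plvap cells.

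**Figure D4:**
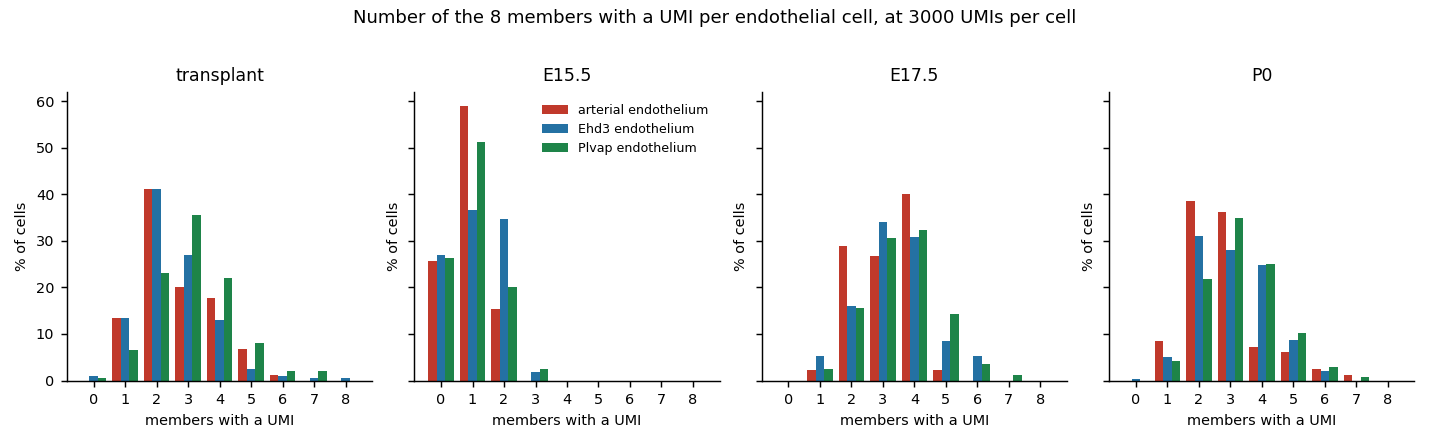
Share of cells (% of the gate's cells in a library) by the number of the 8 genes with at least 1 UMI, after thinning each cell to 3000 UMIs. E15.5 cells hold at most 3 genes, while P0 and E17.5 cells reach 7, transplant cells reach 8, and most cells of these libraries hold 2 to 4.

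Genes of the set were read together in cells of transplant, E17.5 and P0 endothelium. All gates were pooled for this, and genes outside the set were not compared. Among thinned P0 endothelial cells, Ifit1 had a UMI in 10.3% of the 341 cells with Isg15 and in 3.66% of the 465 without it, and Ifit3 in 8.21% and 2.15%. In the transplant Ifit1 had a UMI in 23.1% of the 147 cells with Isg15 and in 5.68% of the 440 without it, and Irf7 in 23.8% and 9.09%. At E17.5 the pair was 17.3% and 7.98% for Ifit1, and 17.8% and 14.9% for Irf7, so the cells with Isg15 were ahead by less for Irf7. For Gbp2 at E17.5 it was 1.40% and 1.06%, nearly alike. At E15.5 just 1 thinned endothelial cell held Isg15, too few to compare. Unthinned, 1 transplant endothelial cell of 8103 UMIs held 33 Isg15, 57 Rsad2, 27 Ifit3 and 16 Ifit1 UMIs, and at E17.5 1 Plvap cell held 24 Isg15, 49 Rsad2 and 19 Ifit1 UMIs. The first of these cells carried 27 of the 167 endothelial Ifit3 UMIs of the transplant.

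Other genes of the pathway were read by list, and like the 8 genes the lists were chosen with earlier results known. Of 38 other type I interferon-stimulated genes, 34 had a ratio in P0 against E15.5 endothelium and 33 were at least 2-fold higher, with a median log2 ratio of 3.05 beside -0.04 for all genes with at least 50 UMIs. Usp18, a protease that removes Isg15 from proteins, had 28.5 CPM at P0 against 0.141 CPM (1 UMI) at E15.5. Oasl2, of the oligoadenylate synthetase family, had 49.2 against 0.564 CPM (4 UMIs). Samhd1 was the exception, with 36.2 CPM at P0 and 27.9 CPM at E15.5. Of 18 genes typical of interferon-gamma, 15 were at least 2-fold higher and none lower. The chemokine Cxcl10 led, at 121 CPM in P0 and 0.564 CPM (4 UMIs) in E15.5 endothelium.

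Of 13 receptor and signalling genes 3 were at least 2-fold higher at P0, against 14.4% of all genes, and with so few genes no difference from that share is read. They included the transcription factor genes Irf9 (71.8 CPM at P0, 10.7 CPM at E15.5) and Stat2 (40.0 CPM at P0, 6.49 CPM at E15.5), which are interferon-stimulated themselves. Irf3, which responds to nucleic acid sensors, had 24.5 CPM at P0 and 36.5 CPM at E15.5. Among 7 sensor genes none was 2-fold higher, too few genes to set against that share, and 1 was lower, the DNA sensor Aim2 at 1.30 CPM in P0 and 9.74 CPM in E15.5 endothelium. No interferon gene had enough UMIs for a ratio: of 11 ligand genes 1 endothelial UMI was read in all 4 libraries, of Ifne at P0, and over all cells Ifng had 19 UMIs in the transplant, 1 at E15.5 and 2 at P0. Ifnk, a type I interferon, had 23 UMIs over all cells at E15.5 and 9 at P0, and Ifnb1 had 2 at E15.5.

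The relatives of Ifitm3 differed. Ifitm10 was higher at P0, with 48 UMIs (4.79 CPM) in P0 and 7 UMIs (0.988 CPM) in E15.5 endothelium, a ratio of 4.84 (2.18 to 12.7), and had 6.51 CPM in the transplant and 3.92 CPM at E17.5. Ifitm2 had 653 CPM in P0 and 475 CPM in E15.5 endothelium, a ratio of 1.37, beside 8.65 for Ifitm3, and in the transplant Ifitm2 was at 1153 CPM, 1.68 times its E17.5 level of 687 CPM. Ifitm1 was at 2.99 CPM at P0 and 4.80 CPM at E15.5. Reads of this family can be shared between copies.

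**Figure D5:**
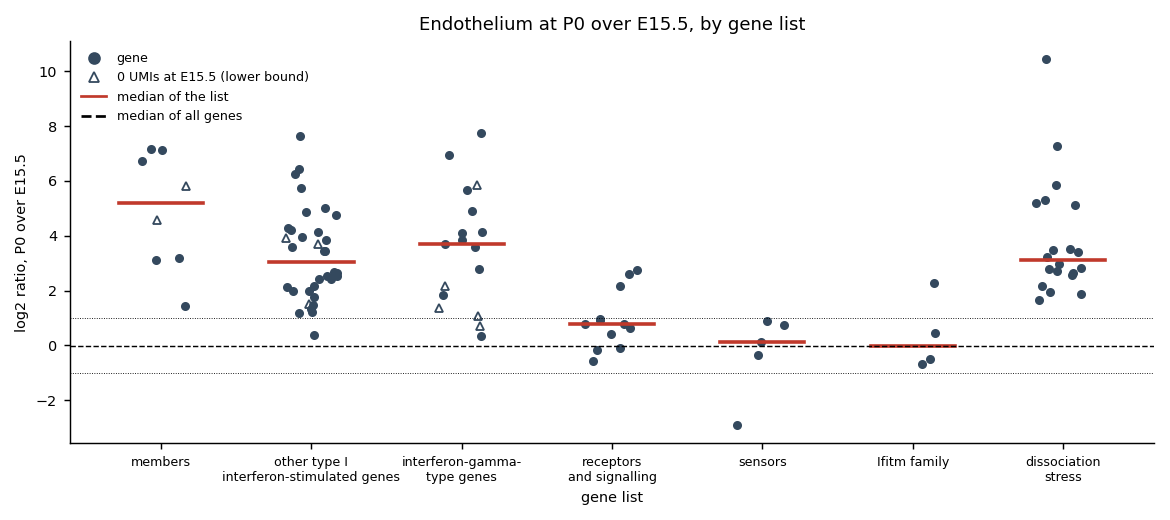
Log2 ratio of P0 to E15.5 endothelium for each gene of each list (points; triangles are lower bounds against 0 UMIs at E15.5), with the list's median in red, the median of all genes as a dashed line and 2-fold as dotted lines. The members, the other interferon-stimulated lists and the dissociation stress list lie mostly above 1, while most receptor, sensor and Ifitm family genes lie between the dotted lines.

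In transplant endothelium against E17.5, 3 of the 38 other type I genes were at least 2-fold higher and 3 lower, a share below the 21.6% of all genes past 2-fold either way, and a higher and a lower one of them rested on 10 UMIs or fewer with intervals that held 1. Among list members with at least 50 UMIs the highest ratio was that of Phf11d, at 64.5 CPM in the transplant and 5.98 CPM at E17.5, and the lowest that of Ifi44, at 59.0 CPM in the transplant and 162 CPM at E17.5. Cxcl10 had 9.19 CPM in the transplant, 37.2 CPM at E17.5 and 121 CPM at P0. On the receptor and signalling list, Irf3, Ifngr1 and Il10rb were higher in the transplant, at 71.6, 157 and 138 CPM, against 26.3, 66.1 and 63.7 CPM at E17.5. Stat2 was among those lower, at 22.5 CPM in the transplant and 42.0 CPM at E17.5. The list is short, and no difference from the 21.6% of all genes is read. In arterial against Plvap cells Lgals3bp ran opposite to Rsad2, at 194 CPM in arterial and 40.3 CPM in Plvap cells of the transplant, 107 and 28.3 CPM at E17.5, and 110 and 44.8 CPM at P0.

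The genes whose level most resembled the mean of the 8 across 59 class and library pairs, by Pearson correlation of log2(CPM + 10) among genes with at least 200 UMIs, were Oasl2, Rtp4, Xaf1, Usp18, Lgals9, Slfn5, Parp12 and Gbp3, with r from 0.957 for Oasl2 to 0.907 for Gbp3. This is a description: the pairs share libraries and depth. Of the 8, 7 were on the lists above and Parp12 was not. Rtp4 had 142 CPM in transplant, 4.66 CPM in E15.5, 174 CPM in E17.5 and 128 CPM in P0 endothelium. Parp12, a mono-ADP-ribosyltransferase, had 40.1, 6.91, 42.4 and 41.4 CPM in the same order, so for both E15.5 was the low library.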

How the data were processed

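The deposited values are whole-number UMI counts per gene and cell barcode, made by the authors with Cell Ranger 3.1.0 on GRCm38, per the submitters' processing notes; per the file headers, E17.5 and the transplant carry version 3.1.0, and the remaining pair 3.0.2. How reads shared between genes were treated is not given in the sources used here, and a joined table was not used. Barcodes with at least 500 genes and at most 20% mitochondrial UMIs were kept. The highest Scrublet scores (scanpy 1.11.5) were removed as doublets at 0.8% per 1000 cells, which took 350 transplant, 102 E15.5, 167 E17.5 and 524 P0 cells. Total UMI counts were 57855356 for the transplant, 92387054 for E15.5, 42430540 for E17.5 and 99068204 for P0. Cells took the class with the highest scaled marker score, given at least 3 marker UMIs, a score of at least 0.4 and a lead of 1.25 times over the next class, and erythroid cells had at least 20% of UMIs in erythroid genes. These score rules were set after seeing the data.

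UMIs were summed per class and library. Levels have exact Poisson and ratios exact conditional binomial 95% intervals, which cover counting error only, and classes under 20 cells were left out. In a ratio, 0 UMIs were replaced by a floor of 3 counts over the class. This gives a bound by convention, which is not a 95% limit. No ratio was given where both sides had 3 UMIs or fewer. The ratio step was tested on simulated data. The members and lists were chosen with earlier results of these data known. Outside the 8 genes, the rule for naming took from each list at most the 4 highest and 2 lowest ratios among genes with at least 50 UMIs, and the 8 genes most alike; the interferon genes and Ifitm10 were named after their counts were seen, as was Lgals3bp in the subtypes. The values of 1 gene of the signalling list are not reported here. Promoter windows matched all 8 genes by symbol. Alternatives numbered 9 from the list written at the start and 2 added after seeing the data. Python 3.11.15, scipy 1.17.1 and pandas 2.3.3 were used.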

Additional observations from a re-analysis of the deposited data

Results flagged for a closer look

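The arterial to Plvap ratio of Isg15 was 19.41 at E15.5, from 10 UMIs in arterial and 1 UMI in Plvap cells, and 0.8041 at P0, with intervals on opposite sides of 1. That of Irf7 was 1.435 in the transplant and 1.448 at E17.5 but 0.6999 at P0. Without the arterial cells that held at least 2 Ehd3 UMIs it was 0.945 at E17.5, the other direction, and 0.396 at P0. That of Ifitm3 was 1.377 at E15.5 but 0.9174 at P0. The transplant to E17.5 ratio of Ifit1 was 1.894 in arterial cells, 4.31 without those that held at least 2 Ehd3 UMIs, and 0.6353 in Plvap cells. In each case the difference between libraries or gates was not tested, since each group is 1 library.

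The P0 library, labelled wild type, held 7221 tdTomato UMIs in its used cells and the other libraries held 0. Endothelium had 98.1 CPM of it and all other P0 cells 81.4 CPM, with the highest level in mural cells, at 475 CPM.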

How the results depend on the processing

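No paired analysis was possible because each group is 1 library. Over 24 counts of members past 2-fold, 243 recomputed counts stayed within 1.5 times the value given and 19 did not. Leaving out the arterial cells that held at least 2 Ehd3 UMIs was an alternative chosen after seeing the data. With it, 4 of 8 arterial members passed between transplant and E17.5 and 5 between transplant and P0, against 2 each. Between arterial and Plvap cells at E15.5 it gave 1 against 2. Gating after thinning to 5000 UMIs, the other alternative chosen after seeing the data, gave 5 against 2 for Ehd3 and Plvap cells of the transplant, 3 against 1 for transplant and E17.5 Ehd3 cells, 1 against 2 for transplant and E17.5 Plvap cells, 1 against 0 for Ehd3 and Plvap cells at P0 and 1 against 2 for arterial and Plvap cells at E17.5. The mean over cells gave 2 against 1 for transplant and E17.5 Ehd3 cells and for transplant and P0 endothelium, and 1 against 0 for Ehd3 and Plvap cells at E17.5. Scaling to the median ratio gave 2 against 1 for transplant and E17.5 Ehd3 cells and for transplant and P0 endothelium, and 1 against 2 for transplant and P0 arterial cells, where no doublet removal did so too. A stricter gate gave 1 against 2 for transplant and E17.5 arterial cells and for arterial and Plvap cells at E17.5. A minimum of 20 UMIs gave 1 against 2 for transplant and E17.5 arterial cells and for arterial and Plvap cells at E15.5. The causes were not tested. Of the single ratios, 1757 recomputed values lay within the counting interval of the value given and 215 outside it, and 0 of those past 2-fold turned round. Low counts limit the ratios of Isg15, Ifit1, Ifit3, Irf7 and Gbp2 to E15.5, where each had 12 endothelial UMIs or fewer. These counts were low although the E15.5 endothelial cells were the most deeply sequenced.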

Other observations

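The response-element motif was present in 10 of 13 windows of the interferon-gamma-type list and in 11 of 27 of the other type I list. Of all genes 3.99% held it. The gamma-activated site motif was in 7 of 13 and 5 of 27, and in 9.55% of all genes. These are counts of letters in windows and were not tested. List genes without a window under their symbol were left out.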
